A study of Homo sapiens with 9 samples.

Results

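The miR-32 and miR-455 transfections of KYSE30, a human cell line grown from a squamous cell carcinoma of the esophagus, were each set against the negative control transfection, and the differences that both have in common were described. These are 3 of the 9 arrays of the series, 1 array for each group: KYSE30 with miR-32, KYSE30 with miR-455 and KYSE30 with the negative control. Every culture received its RNA with a Lipofectamine reagent in medium with serum and was harvested on day 3, and the Illumina arrays were hybridised with biotin-labelled cRNA. Of the 47317 probes on each array, 16900 had a detection p under 0.01 on at least 1 of the 3 arrays, and these are the probes described here. The sequence and make-up of the negative control, the dose of each RNA and the arm of each microRNA are not stated in the labels or files used. With 1 array for each group there is no replicate error, no test is possible and no p-value is given. What separates any pair of arrays may thus come from the cultures or the hybridisations as well as from the RNA.

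A microRNA is a short RNA that a member of the Argonaute family carries to messenger RNAs, which it pairs with mainly through its seed, the stretch near its 5′ end. Pairing usually lowers the level of the messenger RNA or of its protein, so that a transfected microRNA can lower many transcripts by small amounts, while transcripts that are higher are usually taken for indirect changes. Transfected RNA duplexes can also be sensed by the cell as foreign RNA, whatever their seed.

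Both arms of the 2 microRNAs are shown because they are the agents tested and because none of their seeds is the same. The capitals mark the seed, bases 2 to 8, and each sequence is the mature microRNA of RefSeq, 5′ to 3′.
hsa-miR-32-5p: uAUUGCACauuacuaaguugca
hsa-miR-32-3p: cAAUUUAGugugugugauauuu
hsa-miR-455-5p: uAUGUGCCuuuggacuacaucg
hsa-miR-455-3p: gCAGUCCAugggcauauacac
The seed of miR-32-5p occurs in 5 other mature human microRNAs of the table, namely miR-25-3p, miR-92a-3p, miR-92b-3p, miR-363-3p and miR-367-3p. Those of miR-32-3p, miR-455-5p and miR-455-3p occur in 0 others. On GRCh38.p14, MIR32 lies on chromosome 9 from 109046229 to 109046298, within the span of the protein-coding gene TMEM245 (109015135 to 109119947). MIR455 lies on the same chromosome from 114209434 to 114209529, within the span of COL27A1 (114154098 to 114312511), which encodes a collagen chain.

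The files name the probes by number and do not pair them with genes, and the RefSeq gene table holds 0 of the numbers. The unit of description is therefore the probe. Marker genes of squamous epithelium or of other cell types, and targets of either microRNA, were not analysed here for the same reason.

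The 3 arrays were broadly similar in brightness and detection, with the control the lowest of the 3 in both. Raw signal averaged 452 with miR-32, 468 with miR-455 and 406 in the control, and 15775, 15259 and 15099 probes were detected on these arrays. The other 6 arrays, whose levels are given further on, averaged from 223 with the siRNA combination to 418 with miR-181a. The miRNA combination was at 270. Quantile normalization brought arrays of this unlike brightness to a common scale. Of the 16900 probes, 14070 were detected on all 3 arrays and 860 on none of the other 6 arrays of the series. Detection on a single array occurred at 804 probes for miR-32, 451 for miR-455 and 482 for the control. At the limit of detection, 92 probes had a lowest p of 0.00909, just inside, and 235 had 0.0104, just outside.

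With miR-32, few probes differed from the control, and most of those at least 2-fold apart were higher. Levels are log2 intensities after background correction and quantile normalization. A probe was compared where it was detected on at least 1 of the 2 arrays, which gave 16449 probes, and its difference is miR-32 minus control on the log2 scale. At least 2-fold, 83 probes (0.505%) were higher with miR-32 and 27 (0.164%) were lower. At 4-fold, 24 (0.146%) were higher. At 1.5-fold, 373 (2.27%) were higher and 318 (1.93%) lower, so that the excess of higher probes was seen at the large differences. Of all probes compared, 95.8% lay within 1.5-fold. Among probes measured on both arrays the differences ran from -1.57 to 3.58. All 83 higher probes were detected with miR-32, 14 of them were not detected in the control, and for these the difference is a lower bound.

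With miR-455, the picture was close to that of miR-32. Of 16096 probes compared, 96 (0.596%) exceeded the control by at least 2-fold and 30 (0.186%) were lower by as much, and 21 (0.13%) were at least 4-fold higher. At 1.5-fold, 406 (2.52%) were higher and 445 (2.76%) lower, so at this size the lower probes were the more frequent. Differences of probes measured on both arrays ran from -2.01 to 3.43. Of the 96 higher probes, 18 were not detected in the control, so their differences are lower bounds.

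The split between higher and lower probes depended on the background correction, the offset and the reference. Of the probes at least 2-fold apart, 75.5% were higher with miR-32 and 76.2% with miR-455. Without background correction these shares were 93.2% and 88.2%, and with an offset of 50 they were 90.1% and 85.5%. The authors' processed values gave 62.9% for miR-32 and 72.9% for miR-455. With the median of the 6 other arrays in place of the control the majority turned over. Those 6 arrays are transfections with microRNAs or siRNAs and not controls, so this is another comparison and no check on the control. Of 16210 probes compared, 98 were higher and 232 lower with miR-32 (29.7% higher). Of 15820 compared, 81 were higher and 216 lower with miR-455 (27.3% higher). For this reference a probe counted as detected where at least 3 of the 6 arrays detected it, so the probes compared are not quite the same. With median scaling the shares were 97.0% and 93.4%, but that scaling moved the median of all probes compared by 0.26 for miR-32 and 0.19 for miR-455, and relative to that shift they were 76.0% and 74.5%, near the shares given first.

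The dimmest probes gave no calls, because an undetected value was raised to the lowest detected one. The probes compared were put in 5 bins of equal size by mean level, with bin 1 the dimmest. For miR-32 against the control, 0 of 3290 probes in bin 1 were at least 2-fold apart, 27 were higher and 12 lower in bin 2, 24 and 13 in bin 3, 17 and 1 in bin 4, and 15 and 1 in bin 5. For miR-455 the count was 0 of 3220 in bin 1, 34 higher and 14 lower in bin 2, 31 and 10 in bin 3, 17 and 6 in bin 4, and 14 and 0 in bin 5. Lower probes thus lay mostly in bins 2 and 3 with both microRNAs, while higher probes also occurred among the brightest.

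Most of the higher probes were shared by miR-32 and miR-455. Of 15645 probes compared in both, 68 (0.435%) were at least 2-fold higher in each, which is 68 of the 83 of miR-32 and 68 of the 96 of miR-455. Only 10 (0.0639%) were at least 2-fold lower in each, of 27 and 30. At 4-fold, 20 probes (0.128%) were higher in each, and at 1.5-fold 216 (1.38%) were higher and 134 (0.857%) lower in each. Both comparisons use the same control array, so a level that is low or high on that array alone appears in both, and that cannot be told apart here from a difference that the 2 transfections have in common.

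**Figure D1:**
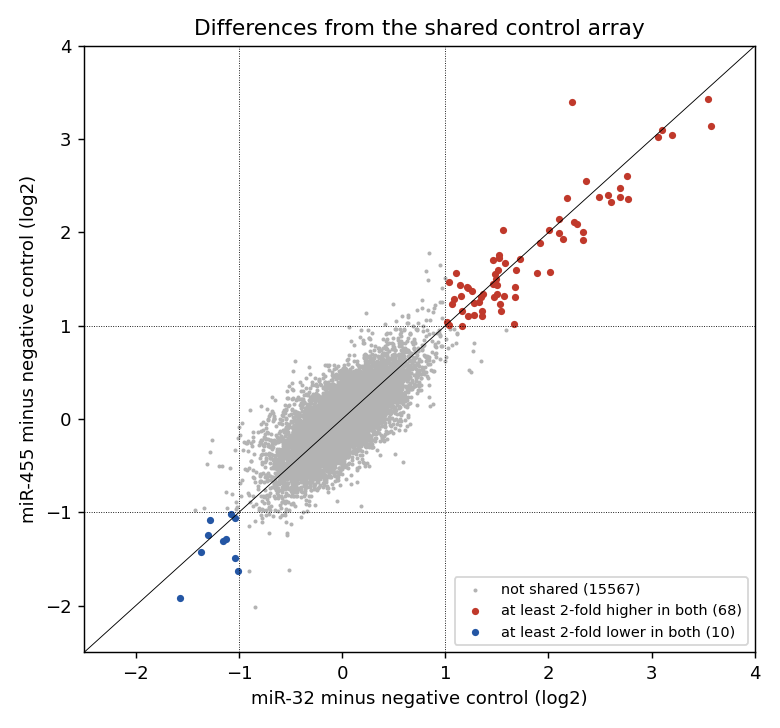
Each point is 1 of the 15645 probes compared in both, with the difference of miR-32 from the control on the x axis and that of miR-455 on the y axis, both log2, 1 array each. The 68 probes at least 2-fold higher in both (red) lie close to the line of equal difference, up to 3.58 and 3.43, and the 10 lower in both (blue) reach -1.57 and -1.92.

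The shared higher probes differed by about the same amount with each microRNA. Their median difference was 1.55 with miR-32 (range 1.02 to 3.58) and 1.57 with miR-455 (range 1.0 to 3.43), which are 2.93-fold and 2.96-fold. The difference was larger with miR-32 at 42 of the 68 and with miR-455 at 26, and 1 of the 68 was at least 2-fold apart between the 2 microRNA arrays. Of the 68, 56 were detected on all 3 arrays and 12 were not detected in the control. Near the threshold, 9 probes had a smaller difference of 1 to 1.1 and 16 had one of 0.9 to 1.

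Ranked by the smaller of their 2 differences, the top 2 shared higher probes among those detected on all 3 arrays were ILMN_2231928 and ILMN_1662358. ILMN_2231928 had a log2 level of 10.38 with miR-32 and 10.26 with miR-455, against 6.83 in the control, from raw signals of 1745, 1663 and 189. It was 11.7-fold higher with miR-32 and 10.8-fold higher with miR-455. Both microRNA arrays were thus far above the control and 0.12 apart from each other.

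On the other arrays ILMN_2231928 was at 6.74 with miR-181a, 10.92 with miR-181b, 10.32 with siPIK3R1, 12.18 with siPIK3R3, 10.73 with the miRNA combination and 11.95 with the siRNA combination. ILMN_1662358 had a level of 12.71 with miR-32 and 12.26 with miR-455, against 9.12 in the control, from raw signals of 8591, 6478 and 672. It was 12-fold higher with miR-32 and 8.82-fold higher with miR-455. Only the miR-181a array, at 8.48, was below the control, and the other 5 arrays lay between 13.56 and 14.29, above both microRNA arrays described here.

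**Figure D2:**
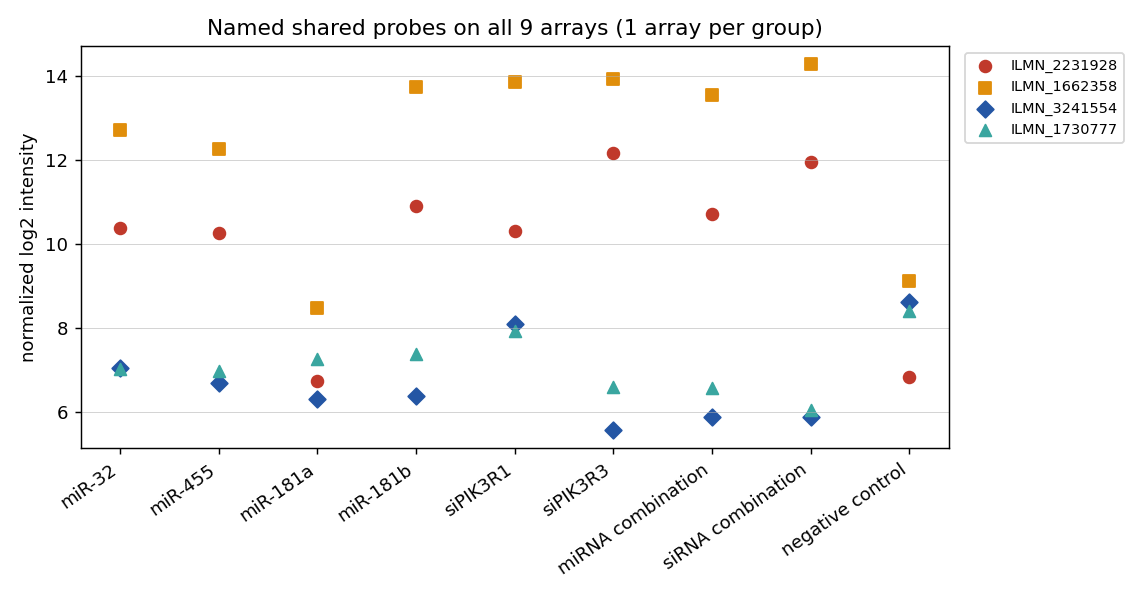
The log2 intensity of 4 shared probes on each of the 9 arrays, 1 array per group, with the control at the right. The 2 higher probes (circles and squares) are low in miR-181a and in the control, at 6.74 and 6.83 for ILMN_2231928, and the 2 lower probes (diamonds and triangles) are highest in the control, at 8.62 and 8.40. All were chosen by their difference from the control, which in part fixes its place.

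As a set, the 68 shared higher probes stood lowest in the control and in miR-181a. Their median level was 8.94 with miR-32 and 8.94 with miR-455, against 7.04 in the control. It was 7.15 with miR-181a, 9.94 with miR-181b, 9.70 with siPIK3R1, 11 with siPIK3R3, 9.89 with the miRNA combination and 11.40 with the siRNA combination. At 60 of the 68 probes the control and miR-181a were the 2 lowest of the 9 arrays, and the control alone was the lowest at 27 and miR-181a at 40. These ranks use the raised values of undetected probes, and 56 of the 68 were detected in the control and 59 with miR-181a. The lowest detected value was 5.78 in the control and 5.82 with miR-181a. At a probe detected on neither array, the control therefore ranks below miR-181a whatever the measured signals. The probes were chosen for being lower in the control than in 2 of these arrays, so the rank of the control is in part fixed by the choice, and the level in miR-181a is not.

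The medians of the differences from the control, which all share that array, put miR-32 and miR-455 at the small end of the transfections in which these probes were high. They were 1.55 with miR-32 and 1.57 with miR-455, beside 2.34 with miR-181b, 2.13 with siPIK3R1, 3.49 with siPIK3R3, 2.46 with the miRNA combination and 3.56 with the siRNA combination. With miR-181a the median was -0.10, and single probes ran from -1.12 to 2.25. With the median of the 6 other arrays in place of the control, 16210 probes were compared for miR-32 and 15820 for miR-455. Among the probes compared in both, 56 were at least 2-fold higher in both microRNA arrays and 139 lower, and no share of these was computed. Of the 68, 0 were among the 56. That 0 follows largely from the levels given above, since the 68 were higher still on most of those 6 arrays, which are not controls.

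**Figure D3:**
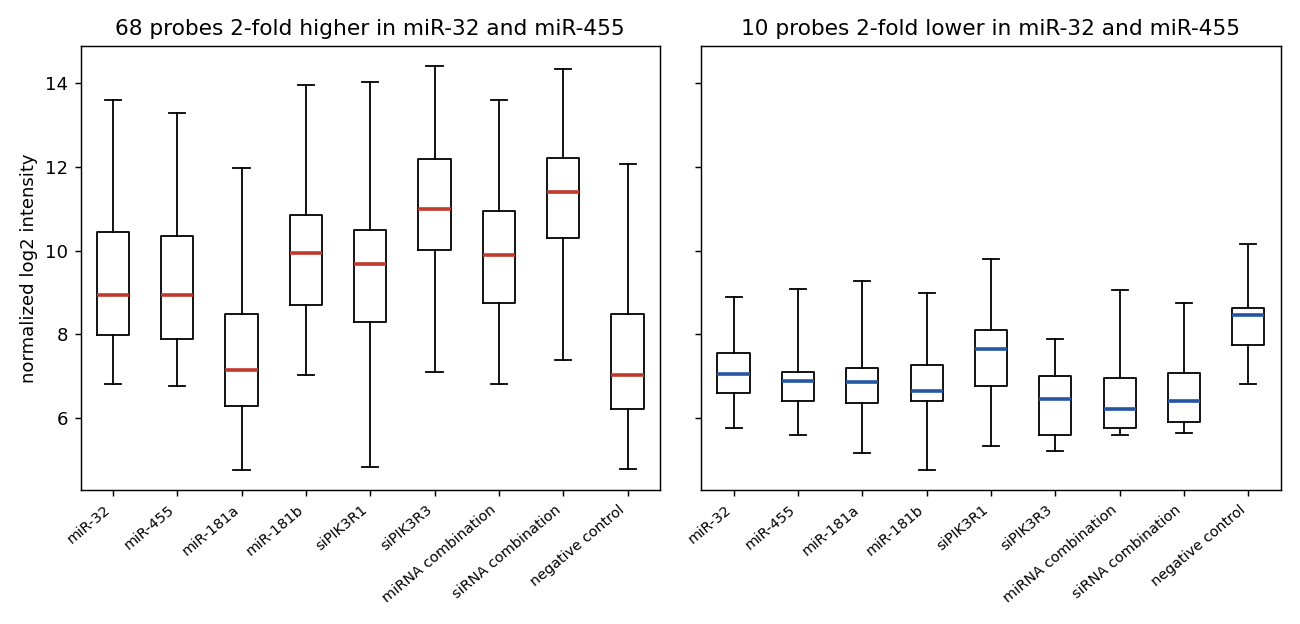
Log2 intensities on each of the 9 arrays of the 68 probes higher in both microRNA arrays (left) and of the 10 lower in both (right), with the median, the quartiles and the lowest and highest probe. On the left the medians of miR-181a (7.15) and the control (7.04) are the lowest, and on the right the median of the control (8.46) is the highest. The choice of the probes in part fixes the place of the control in both panels.

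The 10 shared lower probes were highest in the control and low on nearly all other arrays. Their median difference was -1.14 with miR-32 (range -1.57 to -1.01) and -1.30 with miR-455 (range -1.92 to -1.02), or 2.21-fold and 2.46-fold lower, and 9 of the 10 were detected on all 3 arrays. Their median level was 7.05 with miR-32 and 6.89 with miR-455, against 8.46 in the control. The other 6 arrays had medians of 6.23 to 7.64, so the control was above them all. At 9 of the 10 probes the control was the highest of the 9 arrays. These probes were chosen for being higher in the control than in both microRNA arrays, so the rank of the control is in part fixed by the choice. With the median of the 6 other arrays in place of the control, 0 of the 10 were at least 2-fold lower in both. The low levels on those 6 arrays, which are not controls, in part fix that 0.

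Ranked in the same way, the top 2 shared lower probes were ILMN_3241554 and ILMN_1730777. ILMN_3241554 had a level of 7.05 with miR-32 and 6.70 with miR-455, against 8.62 in the control, from raw signals of 231, 205 and 493. It was 2.98-fold lower with miR-32 and 3.79-fold lower with miR-455. Its level on the other 6 arrays ran from 5.57 with siPIK3R3, where it was not detected, to 8.10 with siPIK3R1, so the microRNA arrays lay inside that range and the control above it.

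ILMN_1730777 had a level of 7.03 with miR-32 and 6.98 with miR-455, against 8.40 in the control, from raw signals of 229, 235 and 431. It was 2.58-fold lower with miR-32 and 2.69-fold lower with miR-455. The other 6 arrays lay between 6.04 with the siRNA combination and 7.94 with siPIK3R1, all below the control.

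Among probes past 2-fold in 1 microRNA array only, the higher ones had medians not far under the threshold in the other array, and the lower ones had smaller differences there. The 15 that were higher with miR-32 alone had a median difference of 1.11 with miR-32 and 0.81 with miR-455, where they ran from 0.50 to 0.97. The 28 that were higher with miR-455 alone had medians of 0.81 with miR-32, where they ran from 0.23 to just under 1, and 1.17 with miR-455. For these 2 higher sets, many single calls therefore rest on small differences in size around the threshold. The 17 that were lower with miR-32 alone had medians of -1.12 with miR-32 and -0.53 with miR-455, and the 20 lower with miR-455 alone had -0.69 with miR-32 and -1.09 with miR-455. In the other array, 9 of the 17 and 8 of the 20 were within 1.5-fold of the control. Of the higher probes, 2 of the 15 and 5 of the 28 were.

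Set directly against each other, with no use of the control, miR-32 and miR-455 were at least 2-fold apart at 7 of 16418 probes. Of these, 4 (0.0244%) were higher with miR-32 and 3 (0.0183%) higher with miR-455. At 1.5-fold, 78 (0.475%) were higher with miR-32 and 140 (0.853%) with miR-455. The standard deviation of the difference over probes was 0.206, below the 0.297 of miR-32 minus control and the 0.312 of miR-455 minus control. The extremes were 1.17 and -1.17, close to the threshold.

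The 7 probes differed in where the control lay. The probe furthest apart with miR-32 the higher had levels of 8.77 with miR-32 and 7.60 with miR-455, against 9.61 in the control, so both were below the control and miR-455 more so. The second was alike, at 9.18 and 8.07 against 9.69. The one after that was at 10.72 and 9.61 against 10.54, with only miR-455 well below the control.

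The last of the 4 was not detected with miR-455, so its 1.05 is a lower bound. Of the 3 probes higher with miR-455, one had 6.94 with miR-32 and 7.98 with miR-455 against 8.20 in the control, and another 7.20 and 8.27 against 7.65. The last belonged to the shared higher set and stood at 8.01 with miR-32 and 9.18 with miR-455, against 5.70 in the control, where it was not detected.

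**Figure D4:**
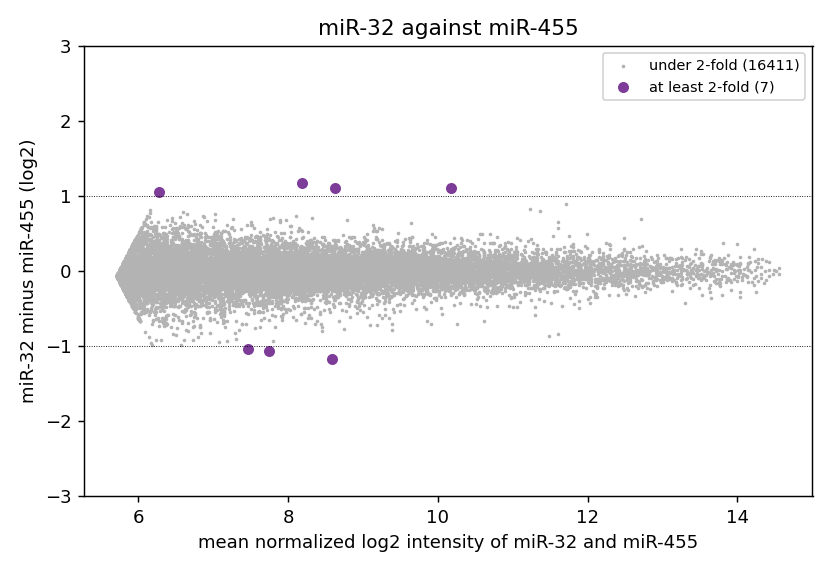
The difference of miR-32 minus miR-455 (log2, y axis) against the mean log2 intensity of both (x axis) for 16418 probes, 1 array each. The 7 probes at least 2-fold apart (purple) lie between 1.17 and -1.17, and all others lie between the dotted lines.

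No probe detected on the arrays where it was higher set the pair apart from all other arrays of the series at 1.5-fold. Of the 14616 probes detected on both microRNA arrays, 0 were at least 1.5-fold higher in both than in each of the 7 other arrays. A lower probe had to be detected on all 7 other arrays, and the count of lower ones was also 0. The 7 include the miRNA combination, whose label does not name its microRNAs. If it held miR-32 or miR-455, a level common to the pair could appear there too. The counts of 0 therefore cannot show that the pair had nothing of its own. Alone against the 8 others, miR-32 was at least 1.5-fold lower at 3 probes and higher at 0, and miR-455 was lower at 0 and higher at 0. For these counts a lower probe had to be detected on all 8 others, and a higher one on the array itself.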

How the data were processed

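The authors deposited a raw table with a linear signal intensity per probe and array (per the file headers, which record neither background correction nor normalization), and a detection p-value per probe and array, also per the file headers. Their second deposited table holds processed intensity values that are a linear function of that array's raw signal, with an equal mean on all arrays. Its median was 12.9 for miR-32, 15.1 for miR-455 and 15.9 for the control, its scale is linear, and its making is not described in the labels or headers.

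Raw signals of all 9 arrays went through neqc of limma 3.58.1 (R 4.3.3, offset 16), that is background correction based on the detection p-values, quantile normalization and log2 values. Later steps used Python 3.11.15 with numpy 2.4.6 and pandas 2.3.3. An undetected value was replaced by the higher of itself and the lowest detected value of its array. A difference of at least 1 on the log2 scale (2-fold) counted as different. The code that makes the calls was checked on simulated arrays with known changes, which tests the code and not the differences reported. The arrays were assigned by their labels. The fixed gene lists, marker genes and named genes could not be used without gene names, and the rule for such a case, the 2 highest and 2 lowest shared probes, was applied to probes detected on all 3 arrays. The comparisons, lists and rules were chosen with earlier results of these data known. The alternatives were other background, scaling, reference, detection and threshold settings.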

Additional observations from a re-analysis of the deposited data

How the results depend on the processing

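No paired analysis was possible because there is a single array (1) per group. Of 86 alternative counts, 46 stayed within 1.5 times the reported count, 26 were higher and 14 lower. The 26 include all 8 counts at the 1.5-fold threshold, since a looser threshold can only raise a count. For the others the causes were not tested. In the order miR-32 higher and lower, miR-455 higher and lower, settings gave 55, 4, 60 and 8 without background correction, 229, 7, 183 and 13 with median scaling, 129, 76, 161 and 60 in the processed values with a floor of 16, and 373, 318, 406 and 445 at 1.5-fold. With an offset of 50 the lower counts were 7 and 12, and set against the 6-array median they were 232 and 216. The shared lower count was 3 without background correction, with an offset of 50 and with median scaling, 18 in the processed values, 139 against the median and 134 at 1.5-fold, and the shared higher count was 122 with median scaling and 216 at 1.5-fold. Probes higher with miR-32 than with miR-455 numbered 1 without background correction, 7 in the processed values, 7 without a detection filter and 78 at 1.5-fold. Those higher with miR-455 numbered 1 without background correction and with an offset of 50, 8 with median scaling, 8 with only the 3 arrays normalized together, 54 in the processed values, 9 without a detection filter, 140 at 1.5-fold and 11 with median scaling recentred, an alternative added after seeing the data. A detection p under 0.05 and detection on all 3 arrays moved no count by over 1.5 times. These are counts and not shares, and the number of probes compared changed with the detection setting. Without a filter it was 47317. For miR-32 against the control it was 19692 at a p under 0.05 and 14070 with detection on all 3 arrays, beside 16449 in the main setting. A higher count without a filter need not be a higher share. The 4 named probes kept their direction at 2-fold in all settings but one. Against the median of the 6 other arrays, which are not controls, ILMN_2231928 was at -0.45 with miR-32 and -0.57 with miR-455. In the same order, ILMN_1662358 was at -1.1 and -1.55, ILMN_3241554 at 0.96 and 0.61, and ILMN_1730777 at 0.11 and 0.05. The mean over all probes of a gene and the gene lists were not run. Signal near background limits differences of dim probes to lower bounds.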
